A study of Mus musculus with 16 samples.

Results

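The genes described here encode the enzymes that write and erase methyl groups on histone lysines, and they were followed in mouse CD8+ T cells sorted by an autophagy reporter. Members were taken from the deposited gene table by the start of their symbol (Kdm, Kmt2, Kmt5, Setd, Suv39, Ehmt or Nsd), together with Dot1l and Ash1l and without Kdm6a and Kdm6b. The rule matched 44 of the 13275 genes in the table. One match, Nsdhl, encodes a sterol dehydrogenase and no histone enzyme, so the counts below cover the other 43 genes, of which 27 stand on the methyltransferase side and 16 are demethylases. Nsdhl itself was measured at 71.3 and 69.8 CPM in LC3-GFP positive and at 71.6 and 73.2 CPM in negative libraries, with a log2 difference of -0.04 and an adjusted p of 0.709 by edgeR with Benjamini-Hochberg adjustment.

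The cells came from Pmel mice, whose T cells recognise a melanocyte antigen, carrying an LC3-GFP-RFP transgene that makes autophagosomes fluoresce. All groups shared the same culture: 3 days with anti-CD3 and anti-CD28 (2 µg/ml of each) in medium with IL2 at 100 IU/ml, then carbon monoxide (CO) for 24 h, then sorting into populations positive or negative for LC3-GFP. No group without CO was analysed here, so each comparison sets the 2 sorted populations against each other. RNA was sequenced from 2 positive and 2 negative libraries, and open chromatin was mapped by ATAC-seq, which cuts accessible DNA with the Tn5 transposase, in another 2 and 2 libraries of cultured cells. For 8 further ATAC libraries, sorted cells were given to C57BL/6 mice bearing 12-day-old B16-F10 melanomas, and Vβ13+CD8+ cells were recovered from the tumours after 15 days, from 4 mice for each population. The promoter driving the reporter, the sex and the age of the animals are not given in the labels, nor is the origin of the RNA replicates and of the cultured ATAC replicates. A p-value therefore reflects how far these particular libraries vary, and that variation may be technical.

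Histone lysine methylation is laid down by enzymes that take the methyl group from S-adenosylmethionine (SAM). Most carry a SET domain, while DOT1L does not. It is removed either by the flavin-dependent KDM1 enzymes or by JmjC-domain enzymes, which need iron, oxygen and 2-oxoglutarate. Methylation of H3K4 and H3K36 marks active promoters, enhancers and gene bodies, while methylation of H3K9 and trimethylation of H4K20 mark silenced chromatin. In CD8+ T cells these marks are rewritten as cells pass from the naive to the effector and memory states.

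The RNA libraries held 17557628 and 15605902 estimated counts in positive cells and 15850657 and 14567540 in negative cells, so that 3 counts, the most that a count of 0 allows, correspond to 0.167 to 0.210 CPM. CPM is edgeR's unit of counts relative to the TMM-scaled library total, and it is compared between libraries and not between genes, since it is not corrected for gene length. Other values also separated the populations. The ribosomal repeat Rn45s took 1.43% and 1.51% of counts in positive and 3.20% and 3.58% in negative libraries. The summed level of 7 B and plasma cell markers was 16.3 and 16.6 CPM in positive and 4.72 and 6.01 CPM in negative libraries, where Ms4a1, Cd22 and Mzb1 were at 0 in 1 library each, and 6 of the 7 were called higher. The 9 myeloid and dendritic markers tested summed to between 82.7 and 85.6 CPM in all 4 libraries, 4 of them higher and 2 lower. Their log2 differences ran from -1.54 to 5.06, so the even sum hid large changes in both directions. The 3 NK and mast cell markers, all called lower, summed to 55.9 and 56.6 against 153 and 143 CPM. The genes listed as CD8 T cell markers, which include general T cell genes, were present in every library. The 7 tested summed to 1842 and 1866 CPM in positive and 2063 and 2129 CPM in negative cells. Of these 7, 6 were called lower. Both CD4 T cell markers tested were called: Cd4 was at 4.40 and 3.39 CPM in positive and 0.971 and 0.699 CPM in negative libraries (higher), and Zbtb7b at 54.2 and 50.2 against 76.2 and 69.5 CPM (lower). Of 4 melanoma and stroma markers 0 were called. The part of these differences in the results below was not tested, and in bulk RNA fewer cells of a type cannot be told apart from less RNA per cell.

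Histone demethylase RNA was lower in LC3-GFP positive cells in 7 of 16 genes and higher in 0 of 16, led by the H3K4 demethylase gene Kdm5b and the H3K9 and H3K36 demethylase gene Kdm4b. On the methyltransferase side 7 of 27 genes were lower and 1, Kmt2a, was higher. Over all 43 members this made 1 higher gene (2.33%), 14 lower (32.6%) and 28 not called, beside 11.3% of the 12022 genes tested called higher and 13.6% called lower (edgeR's quasi-likelihood test, Benjamini-Hochberg adjusted p under 0.05). The changes were small. None of the 43 passed 1.5-fold, beside 5.11% of all genes tested that were called and passed it, and the log2 differences ran from -0.58 to 0.23 with a median of -0.04, against 0.002 for all genes. The median size of the difference without regard to sign was 0.110 on the log2 scale in members and 0.154 in all genes. All 43 members passed the filter on low counts and were tested. Both positive libraries lay above both negative ones for 10 members (23.3%) and below them for 18 (41.9%), beside 30.6% and 31.0% of all genes tested. The summed level of the members was 5726 and 5547 CPM in positive and 6090 and 6058 CPM in negative libraries. Fewer members were called without the second positive library, and all of these were lower. The share of all genes tested that was called in that refit is not given here. The fall is therefore not read as particular to the members. Scaling by library size alone gave 5 higher and 11 lower members and moved the share of higher genes among all calls from 45.4% to 65.1%.

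**Figure D1:**
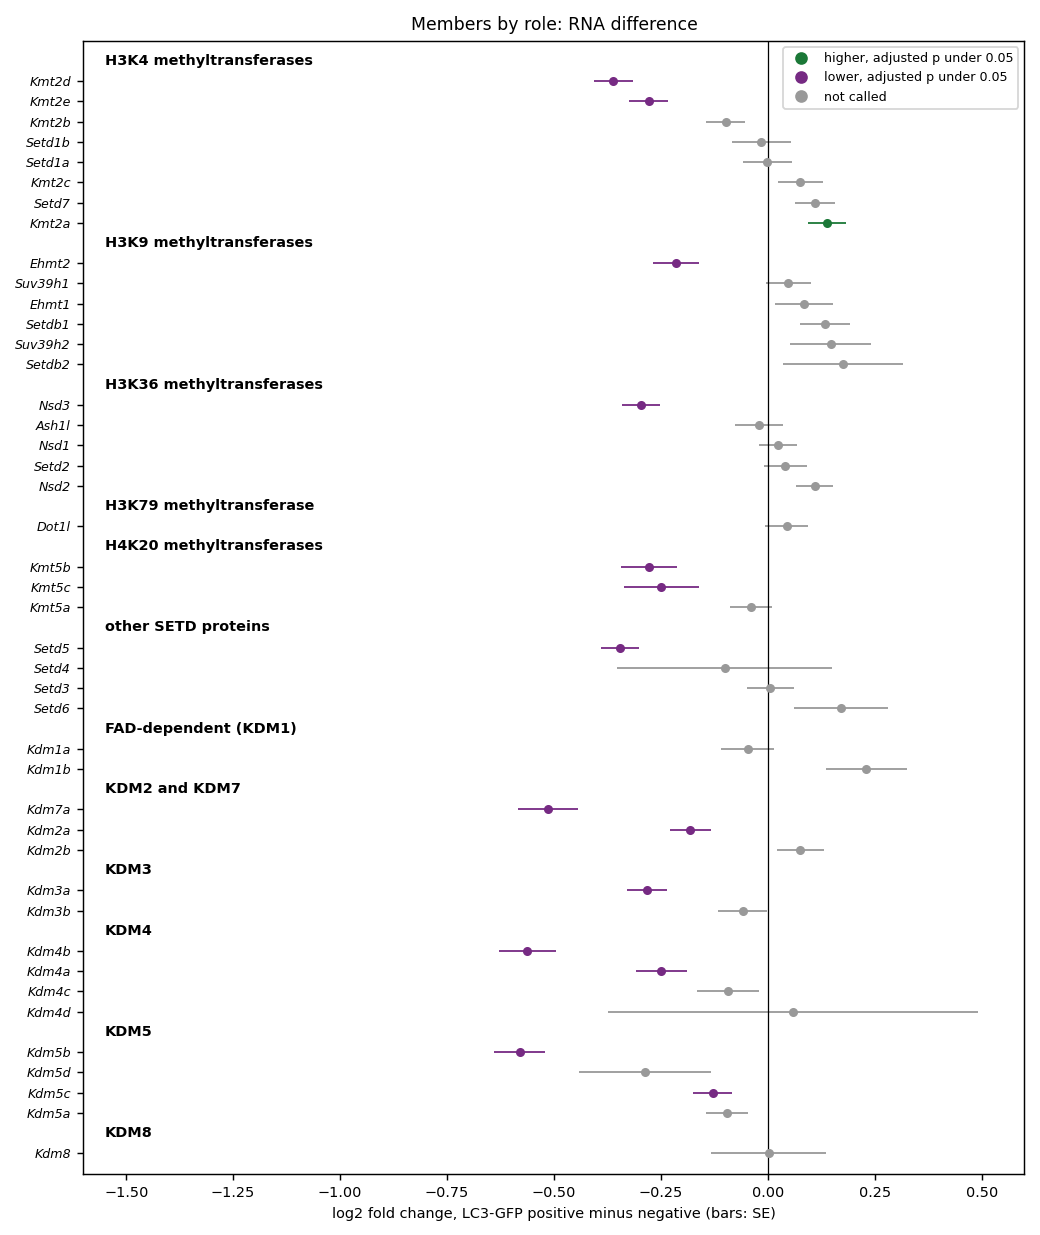
Each point is 1 member's log2 difference between LC3-GFP positive and negative RNA libraries (x axis), with a bar of 1 SE, grouped by role; colours give the edgeR call. The 14 lower members spread over 9 of the 12 role classes, from Kdm5b at -0.58 to Kdm5c at -0.13, while Kmt2a at 0.14 was the member called higher.

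The KDM5 enzymes remove methyl groups from H3K4. Kdm5b showed the largest difference of any member: it was measured at 61.8 and 64.2 CPM in positive and at 92.2 and 96.1 CPM in negative libraries, a change of -33.1% in positive cells (log2 -0.58, SE 0.0603, adjusted p 1.60e-06, edgeR with Benjamini-Hochberg adjustment). The groups did not overlap, and the gap between them was many times the spread within either. Kdm5c, the X-linked member, stood at 221 and 215 against 236 and 241 CPM (log2 -0.13, adjusted p 0.0470), a difference so near the threshold that it was not called in 6 of 11 alternative settings. Kdm5a was measured at 142 and 140 against 151 and 150 CPM (log2 -0.10, adjusted p 0.168) and was not called, although its libraries did not overlap. Kdm5d, the Y-linked copy of Kdm5c, was at 10.8 and 11.2 CPM in positive and 15.5 and 11.2 CPM in negative libraries (log2 -0.29, adjusted p 0.190), so that its difference lay in the first negative library.

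The KDM4 enzymes remove methyl groups from H3K9 and H3K36. Kdm4b was measured at 54.4 and 50.5 CPM in positive and at 79.8 and 75.2 CPM in negative libraries (log2 -0.56, SE 0.0671, adjusted p 8.33e-06 by edgeR with Benjamini-Hochberg adjustment). Kdm4a was at 87.9 and 80.9 against 102 and 98.8 CPM (log2 -0.25, adjusted p 0.00479), and it was not called without the second positive library (adjusted p 0.125). For both genes each positive library was below each negative one. Kdm4c was measured at 47.5 and 45.0 against 48.8 and 49.9 CPM (log2 -0.09, adjusted p 0.381), and Kdm4d, near 1 CPM in all 4 libraries, overlapped between groups.

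Kdm7a, whose product reads H3K4 methylation through a PHD finger and removes H3K9 and H3K27 dimethylation, was measured at 42.9 and 40.7 CPM in positive and 59.1 and 60.4 CPM in negative libraries, a change of -29.9% (log2 -0.51, SE 0.0703, adjusted p 3.70e-05, edgeR with Benjamini-Hochberg adjustment). Kdm3a, an H3K9 demethylase gene known as a target of the hypoxia factor HIF1, was at 181 and 185 against 222 and 222 CPM (log2 -0.28, SE 0.0462, adjusted p 2.02e-04). Both genes kept wide gaps between non-overlapping groups. Kdm2a, an H3K36 demethylase gene whose product binds CpG islands, was at 190 and 187 against 221 and 207 CPM (log2 -0.18, adjusted p 0.0107) and lost its call without either positive library or under scaling by library size alone. Their relatives differed less. Kdm2b was measured at 111 and 112 against 109 and 103 CPM (log2 0.08, adjusted p 0.339) and Kdm3b at 134 and 120 against 132 and 133 CPM (log2 -0.06, adjusted p 0.504). The flavin-dependent genes Kdm1a (LSD1) and Kdm1b were not called: Kdm1a stood at 82.4 and 82.1 against 81.0 and 89.2 CPM, and Kdm1b at 26.0 and 27.5 against 22.3 and 23.4 CPM (log2 0.23, adjusted p 0.0859), the highest log2 difference of any member. Kdm8, a JmjC gene, was at 11.9 and 11.4 against 11.7 and 11.6 CPM.

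Promoter sequences are shown for the member called higher (Kmt2a), the one with the largest fall (Kdm5b), and 2 further lower demethylase genes, Kdm7a and Kdm3a, the last chosen after its values were seen. They run 5′ to 3′ on the gene's strand in build GRCm38.p6 from RefSeq, and each overlaps a deposited ATAC peak in all 12 libraries. Capitals mark ACGTG and GCGTG, the cores of the HIF type element, on the printed strand or its complement. The windows are chr1:134559928-134560227 on the plus strand for Kdm5b, and on the minus strand chr6:39206724-39207023 for Kdm7a, chr6:71632868-71633167 for Kdm3a and chr9:44881240-44881539 for Kmt2a.
Kdm5b: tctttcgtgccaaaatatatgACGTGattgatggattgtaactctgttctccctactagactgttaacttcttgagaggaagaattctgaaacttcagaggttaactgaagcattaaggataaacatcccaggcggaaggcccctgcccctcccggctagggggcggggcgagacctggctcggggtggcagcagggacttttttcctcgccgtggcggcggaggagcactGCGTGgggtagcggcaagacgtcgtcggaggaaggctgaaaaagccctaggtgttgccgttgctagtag
Kdm7a: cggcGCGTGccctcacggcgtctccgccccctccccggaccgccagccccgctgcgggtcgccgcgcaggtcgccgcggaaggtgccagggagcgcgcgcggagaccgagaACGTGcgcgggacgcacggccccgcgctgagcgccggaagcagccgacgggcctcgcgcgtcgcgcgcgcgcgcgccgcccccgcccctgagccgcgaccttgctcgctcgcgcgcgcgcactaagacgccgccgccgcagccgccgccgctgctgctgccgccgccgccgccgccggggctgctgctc
Kdm3a: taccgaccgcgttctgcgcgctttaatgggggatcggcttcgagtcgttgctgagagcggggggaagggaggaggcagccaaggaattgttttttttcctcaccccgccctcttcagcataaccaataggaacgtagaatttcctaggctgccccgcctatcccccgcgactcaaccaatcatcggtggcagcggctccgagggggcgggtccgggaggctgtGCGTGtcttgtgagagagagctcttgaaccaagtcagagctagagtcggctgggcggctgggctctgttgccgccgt
Kmt2a: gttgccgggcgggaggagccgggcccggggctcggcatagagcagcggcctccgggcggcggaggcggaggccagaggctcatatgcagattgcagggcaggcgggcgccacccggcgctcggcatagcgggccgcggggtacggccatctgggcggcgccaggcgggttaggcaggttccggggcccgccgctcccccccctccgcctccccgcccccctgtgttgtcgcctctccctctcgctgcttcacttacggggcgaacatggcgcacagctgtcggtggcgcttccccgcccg
The Kdm5b and Kdm7a windows each hold 1 ACGTG and 1 GCGTG, the Kdm3a window holds 1 GCGTG, and the Kmt2a window holds neither. They differ in base composition too, with 17 CpG in the Kdm5b window, 24 in Kdm3a, 36 in Kmt2a and 65 in Kdm7a.

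A RefSeq promoter of the same length was found for 32 of the 43 members. GCGTG was present, on either strand, in 19 of the 32 (59.4%) and in 32.4% of all 32851 promoters in the table, and ACGTG in 5 (15.6%) against 19.6%. CACGTG, the MYC type core, which contains ACGTG, was in 1 member promoter (3.13%, Ehmt2) against 7.15%, and TGATGNAAT, an ATF4 type motif, in 0 of 32 against 0.965%. Member promoters held a median of 26.5 CpG against 7 in all promoters, which bears on any motif that contains CG. Of the 10 lower members with a RefSeq promoter, 5 held GCGTG (Kdm3a, Kdm5b, Kdm7a, Kmt5b and Kmt5c). ACGTG was held by 3 of the 10 (Ehmt2, Kdm5b and Kdm7a). GCGTG was thus less frequent in the lower members than in the 32, and ACGTG more frequent. The 10 are part of the 32 and are few, so both directions rest on few genes and nothing is read from them. The windows printed above do not represent these 10 members. These matches describe letters in a window and not bound sites.

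**Figure D2:**
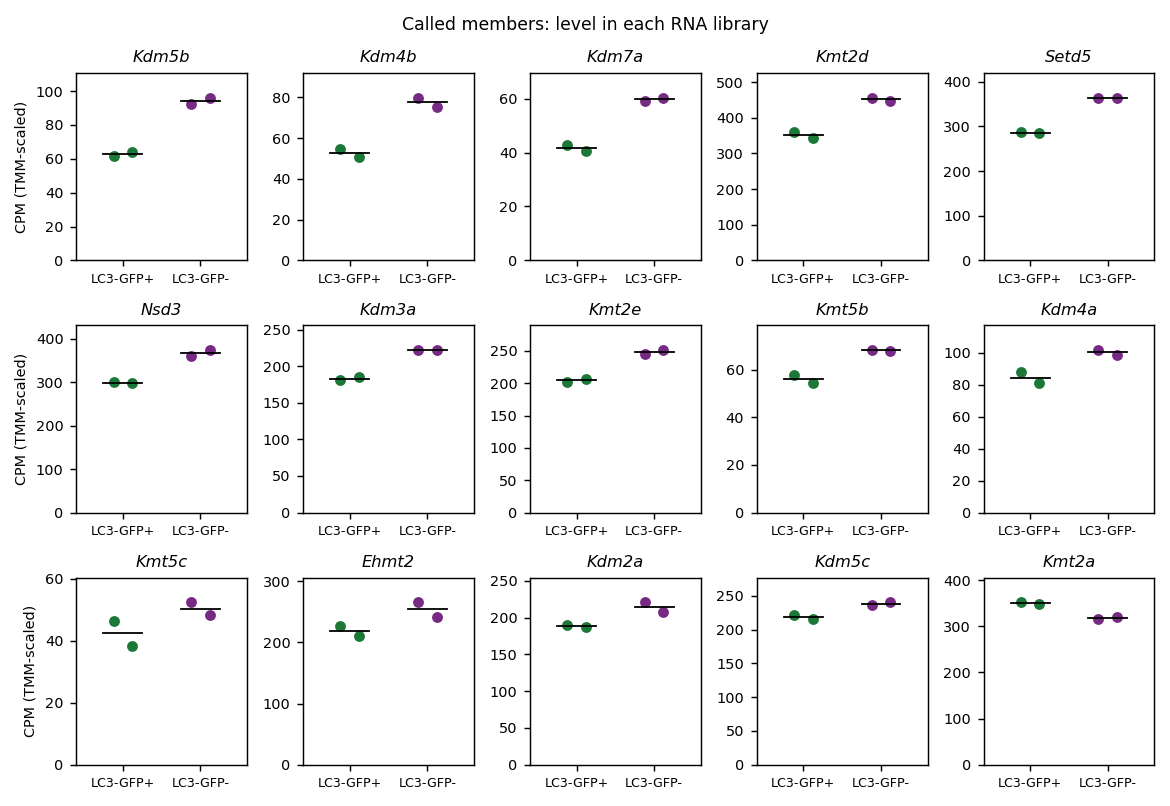
Level of each of the 15 called members in every RNA library (y axis, CPM after TMM scaling, starting at 0); points are libraries and lines are group means of 2. In each panel the positive and negative libraries do not overlap, with the largest relative differences between group means for Kdm5b, Kdm4b and Kdm7a and the smallest for Kdm5c and Kmt2a.

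Among the H3K4 methyltransferase genes, 1 was called higher and 2 lower. Kmt2a (MLL1), which maintains H3K4 methylation at promoters such as those of the Hox genes, was measured at 353 and 348 CPM in positive and 316 and 321 CPM in negative libraries (log2 0.14, SE 0.0436, adjusted p 0.0265, edgeR with Benjamini-Hochberg adjustment). Kmt2d (MLL4), which methylates H3K4 at enhancers, was at 361 and 343 against 456 and 448 CPM, a change of -22.1% (log2 -0.36, SE 0.0448, adjusted p 1.25e-05). Kmt2e (MLL5), a PHD and SET protein without clear methyltransferase activity, was at 202 and 206 against 245 and 252 CPM (log2 -0.28, adjusted p 2.12e-04). Libraries did not overlap for any of the 3. Kmt2a lost its call in DESeq2 (adjusted p 0.0549) and without either positive library (0.266 and 0.173), while Kmt2d and Kmt2e held in all 11 alternatives. Kmt2e overlaps Srpk2 on the opposite strand, which was not called (log2 -0.12, adjusted p 0.143). The uncalled members Kdm1b, Kdm5a, Setd7, Setdb1, Setdb2 and Suv39h2 also overlap another gene of the table, and reads from such pairs may be split either way. Among the 5 genes of this class that were not called, Setd7, a monomethyltransferase with many non-histone substrates, stood at 219 and 211 against 197 and 202 CPM (log2 0.11, adjusted p 0.0987), and the others, Kmt2b, Kmt2c, Setd1a and Setd1b, had log2 differences between -0.10 and 0.08.

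Setd5, a SET protein whose own histone activity is unsettled, was measured at 288 and 285 CPM in positive and 364 and 363 CPM in negative libraries (log2 -0.35, SE 0.0435, adjusted p 1.50e-05 by edgeR with Benjamini-Hochberg adjustment). Nsd3, an H3K36 dimethyltransferase gene, was at 300 and 299 against 361 and 375 CPM (log2 -0.30, SE 0.0443, adjusted p 8.62e-05). Both genes showed a spread within groups far smaller than the gap between them, and both held in all 11 alternatives. The other H3K36 genes were not called. Nsd2 was at 351 and 348 against 319 and 329 CPM (log2 0.11, adjusted p 0.0778), and Nsd1, Ash1l and Setd2, the gene of the enzyme that trimethylates H3K36, had log2 differences between -0.02 and 0.04. The remaining SETD genes, Setd3, an actin histidine methyltransferase gene, Setd4 and Setd6, were not called either: Setd3 was at 101 and 98.7 against 101 and 97.8 CPM.

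Ehmt2 (G9a), which with Ehmt1 (GLP) places H3K9 dimethylation, was measured at 227 and 211 CPM in positive and 266 and 242 CPM in negative libraries (log2 -0.21, SE 0.0533, adjusted p 0.00648, edgeR with Benjamini-Hochberg adjustment) and was not called without the second positive library (adjusted p 0.147). Its partner Ehmt1 was not called (log2 0.08, adjusted p 0.404). The other H3K9 genes, Suv39h1, Suv39h2, Setdb1 and Setdb2, had log2 differences between 0.05 and 0.18 and were not called: Suv39h1, which writes H3K9 trimethylation in heterochromatin, stood at 133 and 139 against 128 and 136 CPM. Of the H4K20 genes, Kmt5b was at 57.8 and 54.2 against 68.3 and 67.8 CPM (log2 -0.28, adjusted p 0.00452), and Kmt5c at 46.5 and 38.1 against 52.4 and 48.2 CPM (log2 -0.25, adjusted p 0.0463). These enzymes add the second and the third methyl group to H4K20. Both lost their call without the second positive library (adjusted p 0.0809 and 0.525), and Kmt5c also without the first negative library (0.127), in DESeq2 (0.173) and under scaling by library size alone (0.135). Kmt5a, the monomethyltransferase gene before them in the series, was at 168 and 159 against 169 and 167 CPM (log2 -0.04, adjusted p 0.609). Dot1l, the H3K79 methyltransferase gene, was at 153 and 146 against 147 and 143 CPM (log2 0.04, adjusted p 0.569).

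**Figure D3:**
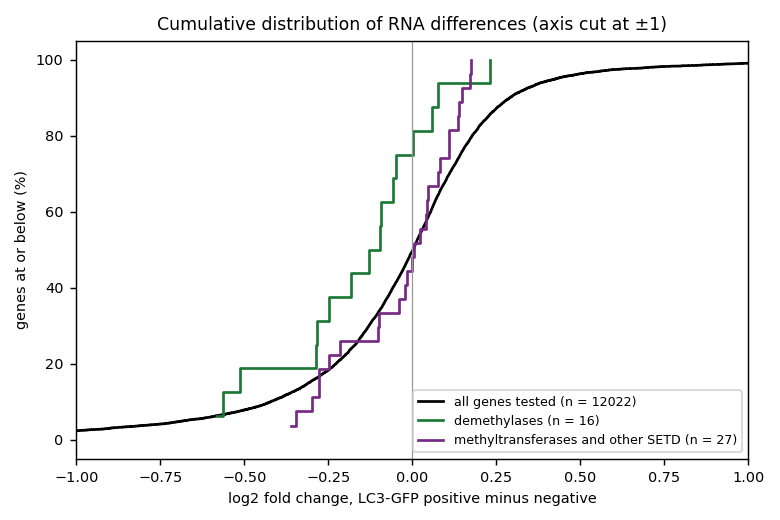
Cumulative share of genes (y axis, %) at or below each log2 difference between positive and negative libraries (x axis, drawn from -1 to 1) for all 12022 genes tested, the 16 demethylase genes and the 27 genes of the methyltransferase side. From Kdm7a (-0.51) upwards the demethylase line lies above that of all genes, with a median of -0.11, while the methyltransferase line crosses that of all genes, with a median of 0.006.

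Genes that work with these enzymes were counted in the same fit, from lists chosen for this purpose. Over all genes tested, 11.3% were called higher and 13.6% lower. Of 13 COMPASS and MLL complex subunits, some of which H3K4 enzymes need for activity, 4 were higher and 0 lower. Among the higher were Ash2l (log2 0.18) and Kdm6a (0.21), a demethylase gene that the symbol rule leaves out of the members. Of 11 DOT1L and super elongation partners, 3 were higher and 0 lower, with Ell2 at 0.40 and Ccnt1 at 0.27. Of 11 HP1, KAP1 and HUSH partners of the H3K9 enzymes, 1 was higher (Pphln1, 0.27) and 0 lower. Of 11 CoREST partners of LSD1, Hdac1 was higher (0.25) and Rcor2 lower (-0.64). The median log2 differences of these 4 lists lay between -0.04 and 0.08, near the 0.002 of all genes.

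Cofactor genes were called in both directions. Of 14 genes of SAM supply, 5 were higher and 2 lower. Mat2a, which makes SAM from methionine, was measured at 343 and 342 CPM in positive and 209 and 242 CPM in negative libraries (log2 0.60, SE 0.0557, adjusted p 3.74e-07, edgeR with Benjamini-Hochberg adjustment), without overlap. Amd1, which draws SAM into polyamine synthesis, was also higher (log2 0.32), while the mitochondrial folate genes Mthfd2 (-0.32) and Shmt2 (-0.25) were lower. Of 19 genes that make or use 2-oxoglutarate or its competitors succinate and fumarate, 3 were higher and 2 lower: Sdhb, a subunit gene of succinate dehydrogenase (0.26), was among the higher, and the transaminase genes Gpt2 (-0.62) and Got1 (-0.17) were the lower. The remaining 14 transcripts of the list were not called.

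Enzymes of the same families that the symbol rule leaves out gave 0 of 12 calls among other SET, PRDM and SMYD genes and 2 higher and 3 lower of 14 among other JmjC genes. Jarid2 (log2 -0.75), a JmjC protein without demethylase activity that travels with PRC2, and Jmjd7 (-0.56), a lysyl hydroxylase gene whose estimated counts were not whole numbers, were the lowest of these, and Riox1 (0.26) and Jmjd1c (0.17) the highest called. Proliferation and HIF1 target genes also differed between the populations, in opposite directions. Of 22 proliferation genes 12 were higher and 0 lower, led by Ccne2 (0.53) and Tyms (0.41), and their summed level was 8038 and 8008 CPM against 7529 and 7058 CPM. Of 15 HIF1 target genes 0 were higher and 12 lower, led by Ndrg1 (-0.85) and Ero1l (-0.62), with a median log2 difference of -0.31 and summed levels of 8258 and 8292 against 9348 and 9205 CPM. The part of either in the members' differences was not tested.

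Open chromatin was compared next, from the peaks deposited for each library. Almost all members had a peak at their start in every library of both populations. Since such a peak was nearly always present, its presence could not separate members with and without an RNA difference. How open the starts were was not compared between the populations. A peak within 1 kb of the start was found for 39 or 40 of the 43 members in each library (90.7% to 93.0%), against 83.9% to 90.5% of the 13275 genes. For 38 members it was present in all 12 libraries, and all 15 members called in the RNA were among them. Dot1l lacked it in 1 library, the first negative one from culture, and Kdm5d in 6 of the 8 tumour libraries. No library had one for Ash1l, Nsd2 or Kdm4c. The start given in the table for Ash1l and Nsd2 lies 15.4 kb and 22.4 kb from the RefSeq start, where all 12 libraries have a peak. For Kdm4c both starts coincide. A region further downstream in Kdm4c, with its midpoint 9578 bp from the start in culture and 9626 bp in tumours, had a peak in every library. Start peaks differed in rank within their libraries' lists. By fold enrichment, the authors' value for each peak, the start peaks of Dot1l and Setd1b had median percentiles of 0.839 and 1.39 in culture, and that of Kdm8 had 96.9.

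Away from the starts, peaks of the cultured cells differed between populations at few regions. Peaks that overlapped were merged, giving 167 regions at members in culture, from 2 kb upstream of a gene to its end, and a median of 3 per member. Of these, 88 (52.7%) were found in all 4 libraries, beside 58.8% of regions at all listed genes. Both positive libraries and neither negative one held 14 regions (8.38%), at 10 members, beside 6.86% of regions at listed genes. The converse pattern was found at 4 regions (2.40%) beside 2.93%. Both shares were near the background. The positive lists were longer as well, with 63761 and 53869 peaks against 56476 and 49634. With the same number of top peaks from each library, 9 regions were positive-only (6.47% beside 5.85%) and 5 negative-only (3.60% beside 5.35%). Leaving out 1 library raised the number of such regions from 18 to between 29 and 39, and the background rose with it: positive-only shares were 10.4% to 21.1% at members and 8.34% to 16.0% at listed genes.

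By rank of fold enrichment the strongest of the 18 was a negative-only region in Kdm1b (chr13:47062867-47063672), 19.8 kb downstream of the start. Kdm5b, the member with the largest fall in RNA, also held a negative-only region at chr1:134580860-134581409, 21.0 kb downstream, with enrichments of 3.97 and 3.68. Its mean percentile was 26.9, and no tumour library had a peak there. Members called in the RNA went both ways. Kmt2e, lower in RNA, held a negative-only region and Kmt2a, higher in RNA, a positive-only one. The lower members Kdm4b, Nsd3 and Kdm2a held positive-only regions. The positive-only regions of highest rank lay in Kmt2c (chr5:25350860-25351531 and chr5:25455396-25456010), Setd3 (chr12:108152513-108153392 and chr12:108139199-108140480), Setdb1 (chr3:95349575-95350090), Kdm5a (chr6:120379353-120380020), Kdm1a (chr4:136583600-136584187) and Kdm4b (chr17:56380953-56381571). All 18 lay between 4.13 and 148 kb downstream of a start and none at a start. Whether they fall in exons or introns was not analysed here. The second Kmt2c region had a peak in all 8 tumour libraries, and the Setdb1 region in 7 of 8. The positive-only Nsd3 region at chr8:25608824-25609431 had a peak in 0 positive and 3 negative tumour libraries, the reverse of its pattern in culture. The negative-only Kmt2e region had a peak in 1 positive and 1 negative tumour library.

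In tumours, 153 regions lay at members, with 65 (42.5%) in all 8 libraries beside 38.8% of regions at all listed genes. Here 4 regions (2.61%) were found in all 4 positive mice and none of the 4 negative mice, beside 0.612% of regions at listed genes, and 0 were found in all negative and no positive mice, beside 0.863%. They lay in Kdm3b, Kdm1b, Kmt5b and Ehmt1, 13.0 to 88.8 kb downstream of the start. In Kdm1b (chr13:47056022-47056992) the deposited fold enrichments were 5.68, 6.50, 6.58 and 7.99 in the positive mice, and the region also had a peak in all 4 cultured libraries. In Kdm3b (chr18:34827008-34828113) they were 7.06, 9.10, 7.03 and 7.32, in Kmt5b (chr19:3804946-3806059) 5.46, 6.35, 5.47 and 5.85, and in Ehmt1 (chr2:24830315-24831306) 4.51, 6.08, 5.65 and 4.47. These 3 had no peak in any cultured library. With the same number of top peaks from each library 3 positive-only regions were left (3.09%), and the share at listed genes rose to 1.45%. Without the first positive mouse, which had the fewest peaks, 4 were found (2.63%) beside 1.58%. Leaving out any other mouse gave 4 or 5, beside 0.680% to 1.04% of regions at listed genes. Of the 4 genes, Kmt5b was called in the RNA of the cultured cells, as lower in positive cells.

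**Figure D4:**
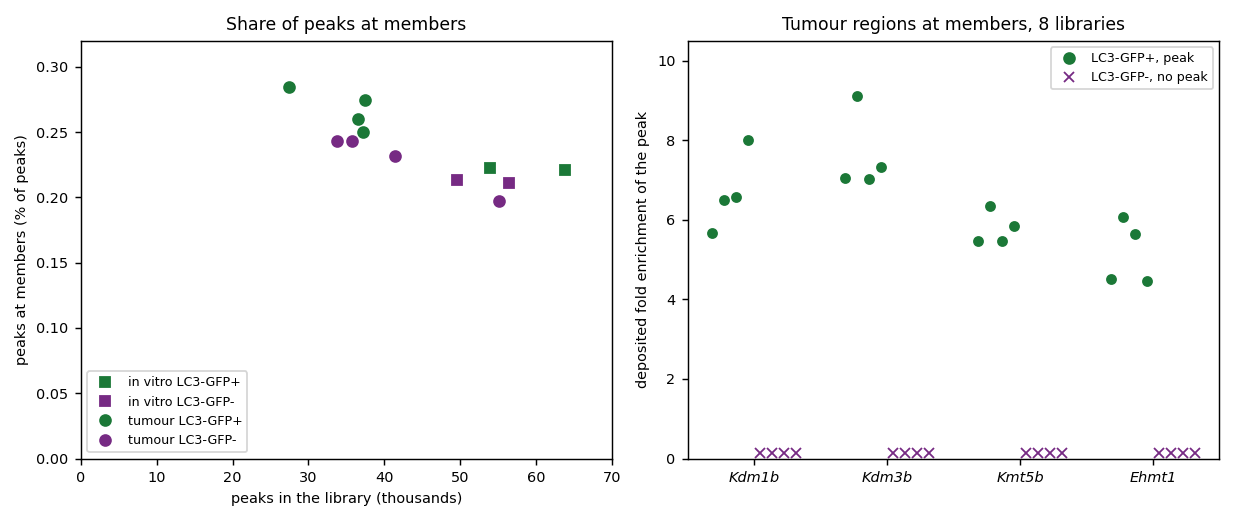
Left, share of each library's peaks that lie at members (y axis, %) against the library's number of peaks (x axis, in units of 1000), with squares for culture and circles for tumours. Right, deposited fold enrichment of the peak in each of the 8 tumour libraries at the 4 regions found in all positive and no negative mice, where points are positive libraries and crosses near 0 stand for no peak; the points lie between 4.47 and 9.10.

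A larger share of tumour peaks lay at members in positive than in negative mice. The same share was not computed for other genes, so nothing particular to the members is read from it. The share was 0.285%, 0.250%, 0.260% and 0.275% of peaks in the positive mice and 0.232%, 0.198%, 0.243% and 0.243% in the negative mice, without overlap. It moved with the number of peaks, which was 27406, 37154, 36539 and 37477 in positive and 41435, 55171, 35758 and 33704 in negative mice. With the top 27406 peaks of each library, a choice made after seeing the data, the shares were 0.285%, 0.266%, 0.277% and 0.274% against 0.259%, 0.215%, 0.259% and 0.255%, still without overlap and with a smaller difference of 0.0283 percentage points against 0.0385. In culture the shares were 0.221% and 0.223% against 0.211% and 0.214%.

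Peaks at members were also compared between culture and tumours. Over all 12 libraries merged, 206 regions lay at members, 63 of them (30.6%) with a peak in every library beside 28.8% of regions at listed genes. Regions with a peak in all 4 cultured and no tumour library numbered 7 (3.40%) beside 4.88%, and regions with a peak in all 8 tumour and no cultured library 0 beside 0.157%. The 7 lay in Kdm1b, Kdm4a, Kdm4b, Kdm7a, Setd3 and, in 2 cases, Kmt2c. The share at members was thus below the background, and nothing particular to them is read from it. Cultured and tumour cells also differ in time and host, which cannot be told apart here.

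Kdm5c and Kdm5d form the X and Y pair among the members, and the libraries differed in their sex chromosome signal. The X inactivation transcript Xist was measured at 2694 and 2653 CPM in positive and 1867 and 2610 CPM in negative RNA libraries, and the Y-linked Eif2s3y at 26.0 and 24.2 against 37.2 and 28.9 CPM, so both were present in every library. Xist was lowest and Eif2s3y highest in the first negative library. Without that library more members were called lower than higher, as in the full fit. The share of all genes tested that was called without it is not given here. Of 9 sex chromosome transcripts 4 were higher and 2 lower, among them Ddx3x (log2 0.42), Xist (0.26, adjusted p 0.0499) and Eif2s3y (-0.40) by edgeR with Benjamini-Hochberg adjustment. Kdm5d (adjusted p 0.190) was called lower in positive cells without the second negative library (log2 -0.50, adjusted p 0.00820).

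At the starts of these genes, cultured and tumour ATAC libraries differed. Kdm5d had a peak in 4 of 4 cultured libraries, with fold enrichments of 7.36 and 8.82 in positive and 6.55 and 6.99 in negative cells, but in 2 of 8 tumour libraries, the third positive mouse (3.45) and the fourth negative mouse (4.08). Kdm5c had one in 4 of 4 and 8 of 8. The other Y-linked starts followed Kdm5d in part: Eif2s3y had a peak in 4 of 8 tumour libraries, Uty and Ddx3y in 6 of 8 each, and all 3 in 4 of 4 from culture. The first positive and second negative mice had none of the 4 Y-linked start peaks. Peaks on the Y chromosome numbered 15 to 22 in cultured and 3 to 17 in tumour libraries. The part of animal sex, host cells and depth in these values was not tested.

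**Figure D5:**
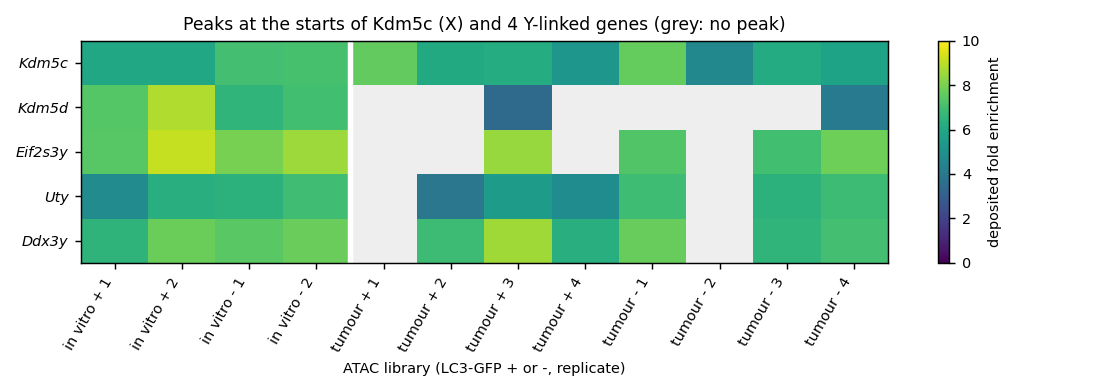
Deposited fold enrichment of the peak at the start of Kdm5c and of 4 Y-linked genes (rows) in each of the 12 ATAC libraries (columns), where grey means no peak. Kdm5c has a peak in every library, while Kdm5d has one in all 4 cultured libraries and in 2 of the 8 tumour libraries.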

How the data were processed

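RNA-seq was deposited by the authors as 1 table of estimated counts per gene, not scaled, in which 22.5% to 23.8% of a library's values were not whole. STAR, DESeq2 and Partek on mm10 are named in the submitters' processing notes; versions, strandedness and the handling of shared reads are not given in the sources used here, so counts of genes that overlap or share sequence are uncertain. ATAC-seq peaks were deposited for each library and, per the submitters' processing notes, come from MACS2, BWA, cutadapt and Partek on the same build; a shift of reads for the Tn5 cut is not stated. Per the file headers, each peak carries its pileup signal, its fold enrichment over background, and the −log10 of its p-value and q-value (smallest −log10 q 1.302). These are the authors' values and served to describe and rank peaks inside a single library's list. ATAC read depth is unknown.

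Estimated counts were rounded, genes kept by filterByExpr (12022 of 13275), scaled by TMM and tested with edgeR 4.0.16 (glmQLFit and glmQLFTest, R 4.3.3, limma 3.58.1) with Benjamini-Hochberg adjustment over all genes tested and a threshold of 0.05. The SE of a log2 difference is its size over the square root of F. The steps were tested on simulated counts. Peaks overlapping by at least 1 bp were merged (Python 3.11.15, pandas 2.3.3) and assigned to genes of the table from 2 kb upstream to the end; start windows reach 1 kb either side. Coordinates are 1-based mm10. Columns of other samples numbered 0. The members and the gene lists were chosen with earlier results of these data known, and no list was tested as a set. Named were the called members, the uncalled member of highest mean CPM in each role class, up to 4 called genes of each partner list, and the regions of 1 population (the 10 of highest rank in culture). Some genes of the lists are not reported here by name. Alternatives were RLE and plain library size scaling, DESeq2 1.42.0, other count filters, a replicate block, removal of each library or of Rn45s, stricter peaks, other merging and other windows. Same-numbered positive and negative RNA libraries deviated from their group means with a correlation of 0.0501 over 12022 genes, so the 2 shared numbers were not taken as pairs.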

Additional observations from a re-analysis of the deposited data

Results flagged for a closer look

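In the tumour positive group the first mouse had 27406 peaks, far below the other 3, with a gap of 0.907 of the group's range. The third positive mouse and the fourth negative mouse each had 40 members with a peak at the start, against 39 in every other mouse of their group, and the added member was Kdm5d. For continuous values this rule for a sample standing apart marks about 1 in 20 groups by chance. Where the other 3 mice are tied, as in the start counts, a difference of 1 member is enough to meet it.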

How the results depend on the processing

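Over the 11 refits, 8 of the 15 called members kept their call in all (Kdm3a, Kdm4b, Kdm5b, Kdm7a, Kmt2d, Kmt2e, Nsd3 and Setd5) and 7 lost it in at least 1 (Ehmt2, Kdm2a, Kdm4a, Kdm5c, Kmt2a, Kmt5b and Kmt5c). Of the 28 uncalled members 22 were never called. No called member changed direction in these refits. Leaving out 1 library gave 8 to 19 called members, lowest without the second positive library, and requiring 1.5-fold as well gave 0. DESeq2 called 12, RLE scaling 14, and the fit with a replicate block 16. For regions of 1 population in culture, leaving out 1 library gave 29 to 39, since a single library then stands for a group. Start windows of 500 bp gave a median of 38 members against 39. With equal numbers of top peaks, an alternative added after seeing the data for the share of peaks at members, the in vitro difference was 0.0131 against 0.00981 percentage points. With RefSeq starts, also added after seeing the data, 40 members had a start peak in all 12 libraries. With 2 libraries a group, small differences are at the limit of the RNA test, and peak lists without read depth cannot separate a missing peak from a shallow library.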
